A study of Homo sapiens with 2 samples.

Results

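The Ikaros family of transcription factors comprises 5 genes, IKZF1, IKZF2, IKZF3, IKZF4 and IKZF5, and all of them were found by symbol among the 36601 genes counted in the CD7+ cells studied here. The cells came from H1, an established human embryonic stem cell line. They went through 12 days of hematopoietic differentiation and then grew on OP9-DLL4, a mouse stromal line that presents the Notch ligand DLL4, before CD7+ cells were sorted for single-cell RNA sequencing. One sample was sorted at day 10 of the co-culture and the other at day 14, with 1 library per day and no replicate, so no test of a difference between days or cell classes was possible and every interval below covers counting error only. H1 is 1 line, and the differentiation took place in a dish without a thymus.

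Ikaros family proteins carry zinc fingers of 2 kinds. The N-terminal fingers bind DNA, for most members at sites with the core GGGAA, and the C-terminal pair joins the proteins into homodimers and heterodimers. IKZF1 encodes Ikaros, which is needed for lymphoid development and brings the NuRD chromatin remodeling complex to DNA. IKZF2 encodes Helios and IKZF4 encodes Eos, both best known in regulatory T cells, IKZF3 encodes Aiolos, known from later B cells, T cells and natural killer cells, and IKZF5 encodes Pegasus, the most distant relative.

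The genes lie on different chromosomes of GRCh38. IKZF1 (ENSG00000185811) spans chr7:50304068-50405101 on the plus strand, IKZF2 (ENSG00000030419) chr2:212999691-213152427 on the minus strand, IKZF3 (ENSG00000161405) chr17:39757718-39864312 on the minus strand, IKZF4 (ENSG00000123411) chr12:56007659-56038435 on the plus strand and IKZF5 (ENSG00000095574) chr10:122990807-123008812 on the minus strand. The 3′ part of IKZF5 overlaps PSTK on the opposite strand, and IKZF1, IKZF2 and IKZF4 each overlap at least 1 noncoding gene on the opposite strand in GENCODE v44. On the same strand, the noncoding gene ENSG00000273118 (chr2:212581357-213021545) overlaps the 3′ part of IKZF2. The pseudogenes KRT8P34 and ENSG00000226117 lie within IKZF3 on its strand. Strand cannot separate these from the members, and their part in the counts was not tested. Whether counting used the strand is not given in the sources used here, so reads of IKZF5 and PSTK may not be told apart where the genes overlap.

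The promoter windows of IKZF1 and IKZF2 are shown because these genes differed in the HLA-DRA-high cells described further on, where IKZF1 was well measured and IKZF2 was low. Each window runs from 250 bases before to 50 bases after the RefSeq start site that lies farthest upstream (GRCh38.p14), and capitals mark the Ikaros core GGGAA and the RUNX motif TGTGGT on either strand. The window of IKZF1 is chr7:50304466-50304765 on the plus strand, and that of IKZF2 is chr2:213152407-213152706 on the minus strand.
IKZF1: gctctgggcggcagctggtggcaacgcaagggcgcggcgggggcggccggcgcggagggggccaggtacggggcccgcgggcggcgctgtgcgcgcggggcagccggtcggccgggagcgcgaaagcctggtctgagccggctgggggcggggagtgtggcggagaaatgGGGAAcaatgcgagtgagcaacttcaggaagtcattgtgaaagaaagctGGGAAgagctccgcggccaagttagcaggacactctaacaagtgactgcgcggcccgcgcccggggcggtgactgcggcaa
IKZF2: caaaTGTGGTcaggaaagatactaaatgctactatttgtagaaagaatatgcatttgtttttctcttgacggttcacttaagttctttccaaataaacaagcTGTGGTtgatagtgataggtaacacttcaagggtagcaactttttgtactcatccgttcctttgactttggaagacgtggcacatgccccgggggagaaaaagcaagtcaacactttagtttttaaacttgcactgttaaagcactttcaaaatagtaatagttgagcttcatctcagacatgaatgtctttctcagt
The IKZF1 window held 2 GGGAA cores and no TGTGGT, whereas the IKZF2 window held no GGGAA and 2 TGTGGT motifs. This contrast is one of the windows shown and not of the genes, since a second IKZF1 window held 2 GGGAA and 1 TGTGGT with 3 CG dinucleotides, the third held neither motif, and a second IKZF2 window held neither, with 7 CG. Of 35116 promoter windows of the same length, 65.0% held GGGAA and 13.1% held TGTGGT, so the first motif is common and the second is not. The GGGAA core contains GGAA, the core of ETS factors, and the letters alone do not tell them apart. The windows also differed in base composition, with 35 CG dinucleotides for IKZF1 and 4 for IKZF2 against a median of 14. Windows were present for IKZF4 and IKZF5 as well, and a window for IKZF3 was not used here.

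A barcode counted as a cell when it held between 1000 and 7000 genes and no more than 18% of its UMIs were mitochondrial, a UMI being the tag of 1 captured molecule. This left 12114 cells at day 10 and 8929 at day 14, with medians of 16174 and 15029 UMIs per cell, and 29 barcodes occurred in both libraries. Cells were placed in classes by raw UMIs of marker genes, namely CD34+, CD3D+ and CD8B+ with at least 1 UMI, and GNLY-high and HLA-DRA-high with at least 1000 CPM in the cell, where CPM is UMIs of a gene scaled to a total of 1000000. Where a cell met several definitions it took the first in the order CD34+, HLA-DRA-high, GNLY-high, CD8B+, CD3D+. At day 10 the CD3D+ class made up 64.7% of cells, CD8B+ 11.6%, CD34+ 10.6%, HLA-DRA-high 9.74% and GNLY-high 1.96%. At day 14 CD8B+ cells made up 65.0%, GNLY-high cells 18.9% and CD3D+ cells 15.4%, and only 45 CD34+ and 9 HLA-DRA-high cells remained. The class names are those of the marker genes and not of cell types. Taken without that order, so that a cell could be in several classes, 11134 day 10 cells held CD3D and had IKZF3 at 27.4 CPM, against 30.6 CPM in the CD3D+ class proper, and 1496 held CD8B and had it at 29.9 CPM against 30.7 CPM. In the day 10 HLA-DRA-high class the 8 monocyte markers summed to 1802 CPM and the 7 markers of conventional dendritic cells to 1313 CPM. The 7 T cell markers also summed to 538 CPM there, and their part in the IKZF2 and IKZF3 levels below was not tested.

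Across all kept cells IKZF2, IKZF3, IKZF1 and, at a low level, IKZF5 were higher at day 14, while IKZF4 differed little between the days. IKZF1 went from a day 10 level of 171 CPM (169 to 173) to 227 CPM (224 to 229), which is 1.32-fold. IKZF2 went from 45.0 to 89.7 CPM, which is 1.99-fold, and IKZF3 from 25.7 to 65.1 CPM, which is 2.53-fold. Of the 5 genes IKZF3 had the largest ratio between the libraries. IKZF4 measured 13.7 and 12.97 CPM. IKZF5 measured 5.51 and 8.05 CPM, which is 1.46-fold, and both levels lay below the limit of 10 CPM set for a call. On the log2 scale with 5 CPM added to each level, IKZF2 differed by 0.92 and IKZF3 by 1.19, so that 2 of the 4 members tested were higher by 1.5-fold or more and 0 were lower. Among all 8295 genes tested, 12.0% were higher and 9.63% lower by that fold. Only 5.42% of tested genes had a ratio above that of IKZF2, and 3.07% above that of IKZF3. IKZF1 had a log2 ratio of 0.40 in this comparison, and 0.63, past the limit, when cells with a UMI of the cell cycle genes MKI67 or TOP2A were left out.

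**Figure D1:**
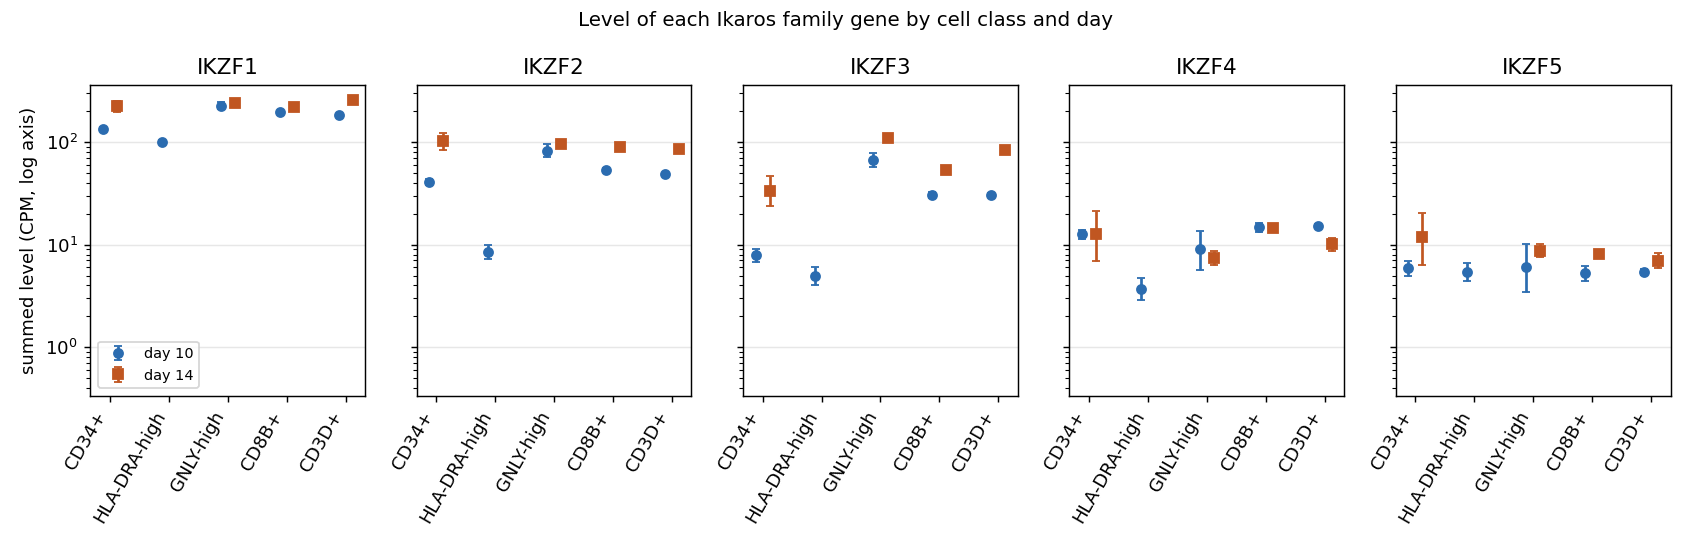
Summed level of each gene in CPM, on a log axis, in the 5 cell classes at day 10 (circles) and day 14 (squares), with 95% Poisson intervals. IKZF3 runs from 4.97 CPM in day 10 HLA-DRA-high cells to 109 CPM in day 14 GNLY-high cells, while IKZF5 stays between 5.27 and 11.8 CPM; the 9 day 14 HLA-DRA-high cells are not drawn.

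The share of cells with a UMI was compared after every cell had been thinned to 5000 UMIs. IKZF1 was seen in 54.9% of day 10 cells (54.0 to 55.8%, exact binomial) and 65.6% of day 14 cells (64.6 to 66.6%). IKZF2 was seen in 18.9% and 34.6%, and IKZF3 in 11.6% and 26.4%. IKZF4 was seen in 5.99% and 5.67% of cells, with overlapping intervals, and in 18.9% and 17.0% without thinning. Without thinning the shares were 87.2% and 91.0% for IKZF1, 45.3% and 65.1% for IKZF2, and 29.4% and 53.6% for IKZF3, so that most cells of either day held IKZF1 at their full depth. As a background, IKZF3 was seen in 1.98% of thinned HLA-DRA-high cells at day 10, at a median of 14602 UMIs before thinning, against 13.9% of thinned CD3D+ cells at a median of 16267. Without the cells of the highest Scrublet scores, described further on, it was 0.592% (6 of 1014 cells). No class fit to serve as a background for IKZF1 was found. At the planned limit of 500 CPM of stromal and endothelial markers, 79 day 10 cells held IKZF1 at 82.2 CPM beside CD3D at 700 CPM. At a stricter limit of 5000 CPM only 10 day 10 cells were left, and these held 1 UMI of IKZF1. More members were seen together at day 14. Cells with at least 3 of the 5 genes made up 3.22% of thinned day 10 cells and 9.80% of thinned day 14 cells, and cells with none made up 31.5% and 15.8%.

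The mix of classes differed between the days, and the day comparison was therefore repeated within each class. IKZF3 was higher at day 14 in every class that held at least 100 cells on both days. In CD3D+ cells it measured 30.6 CPM on the earlier day and 82.7 CPM on the later one, in CD8B+ cells 30.7 and 53.5 CPM, and in GNLY-high cells 66.8 and 109 CPM. None of these pairs of intervals overlapped. IKZF2 stood at 49.2 and 86.2 CPM in CD3D+ cells and at 53.4 and 89.2 CPM in CD8B+ cells. In GNLY-high cells, where IKZF2 was already at 82.2 CPM at day 10, it measured 95.3 CPM at day 14, and the log2 ratio was 0.21 (0.0032 to 0.43), taken like the other ratios within classes without the added 5 CPM. At day 14 IKZF2 lay between 86.2 and 95.3 CPM in these classes.

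IKZF1 showed a smaller day difference within classes. Its log2 ratio was 0.47 in CD3D+ cells (0.42 to 0.51) and 0.17 in CD8B+ cells (0.13 to 0.21). In GNLY-high cells it was 0.08 and the interval of -0.05 to 0.21 included 0. IKZF5 was below 10 CPM in these classes on both days. Its log2 ratio was 0.37 in CD3D+ cells (0.10 to 0.63) and 0.62 in CD8B+ cells (0.36 to 0.89). In GNLY-high cells the IKZF5 ratio was 0.52 (-0.24 to 1.38). IKZF4 measured 15.3 CPM on day 10 and 10.0 CPM on day 14 in CD3D+ cells, a log2 ratio of -0.61 (-0.82 to -0.40) that became -0.43 with 5 CPM added, short of 1.5-fold, and 14.7 and 14.6 CPM in CD8B+ cells. The make-up of the CD3D+ class itself differed, since 2732 of its 7838 cells at day 10 and 30 of its 1378 cells at day 14 had IGLL1 at 500 CPM or more. Among the CD3D+ cells below that level IKZF4 measured 12.6 and 9.79 CPM. The 7 cytotoxic markers summed to 621 CPM in the CD3D+ class at day 10 and 1878 CPM at day 14, and their part in its IKZF3 levels was not tested. When the day 10 class levels were weighted by the day 14 shares of UMIs, a calculation added after the data had been seen, IKZF3 came to 35.6 CPM and IKZF2 to 56.8 CPM. Both values lie above the observed day 10 levels of 25.7 and 45.0 CPM and below the day 14 levels of 65.1 and 89.7 CPM. This weighting takes no account of differences within a class, and the part of cell composition in the day differences was not tested. For IKZF1 the weighted value was 197 CPM, between 171 and 227 CPM. Without the CD34+ and HLA-DRA-high cells the day log2 ratios were 0.29 for IKZF1, 0.79 for IKZF2 and 0.97 for IKZF3.

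The CD34+ class addressed what the family looked like in the progenitors. IKZF3 was 3.90-fold lower there than in CD3D+ cells of the same library, while IKZF1, IKZF2 and IKZF4 differed by less than 1.5-fold. IKZF3 stood at 7.86 CPM (199 UMIs) in 1285 CD34+ cells and at 30.6 CPM (4122 UMIs) in 7838 CD3D+ cells, a log2 ratio of -1.47 with 5 CPM added to each. IKZF1 stood at 135 CPM against 184 CPM, IKZF2 at 40.7 against 49.2 CPM, and IKZF4 at 12.6 against 15.3 CPM. Their log2 ratios were -0.43, -0.24 and -0.21. Of the 4 members tested 1 was lower and 0 were higher, where 4.03% of 8044 tested genes were lower and 6.17% higher by 1.5-fold, and 99.5% of tested genes had a ratio above that of IKZF3. IKZF3 was below 10 CPM in CD34+ cells and was tested only through the CD3D+ class, where it is high. IKZF5 measured 5.88 and 5.41 CPM and was not tested. Without cells that held MKI67 or TOP2A the IKZF1 log2 ratio was -0.77, past the limit.

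**Figure D2:**
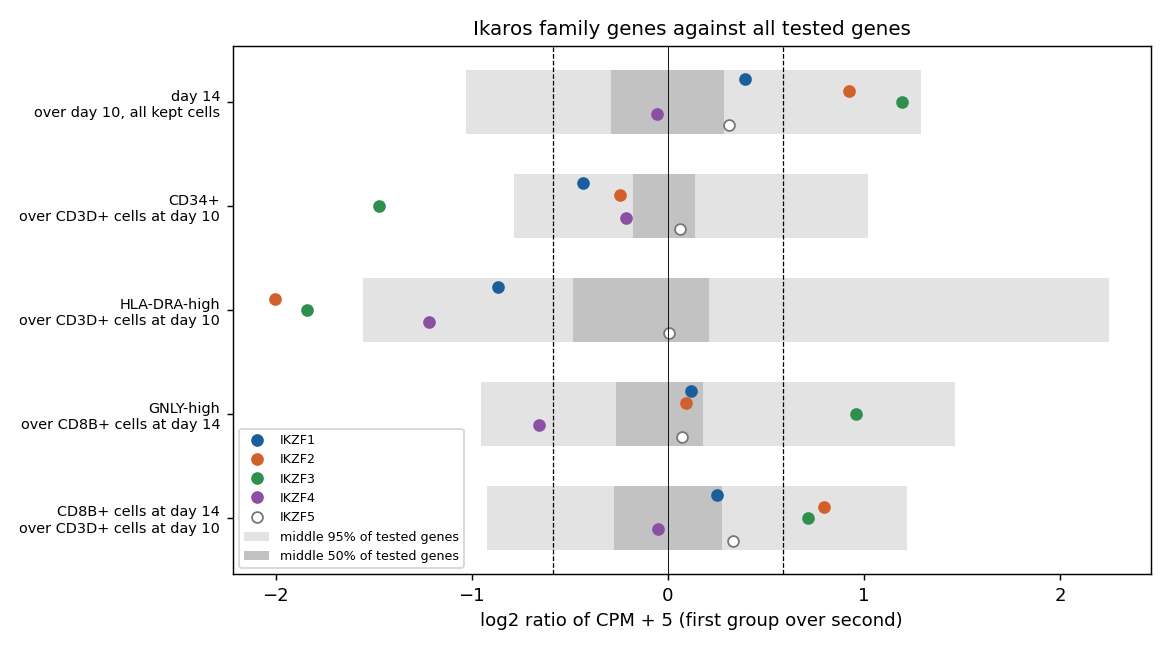
Log2 ratio of CPM + 5 of each gene in the 5 comparisons, over bars that span the middle 50% and 95% of all genes tested in that comparison; dashed lines mark 1.5-fold and the open circle is IKZF5, which was below 10 CPM in both groups throughout. IKZF3 lies outside the wide bar in the CD34+ comparison at -1.47, and IKZF2 and IKZF3 lie outside it in the HLA-DRA-high comparison at -2.01 and -1.84.

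Most CD34+ cells at day 10 also held CD3D, and the class was therefore divided into 4 bins of equal size by the CPM of CD3D in each cell, a division made after the data had been seen. CD3D encodes a chain of the T cell receptor complex and LCK a kinase that signals from it. From the bin with the least CD3D to that with the most, IKZF3 rested on 8, 20, 46 and 125 UMIs and stood at 4.69%, 10.7%, 22.5% and 58.1% of its CD3D+ class level. LCK stood at 7.84%, 24.4%, 34.7% and 67.1%, and CD3D itself, which set the bins, at 11.9%, 37.4%, 54.6% and 88.1%. IKZF3 was thus the lowest of the 3 genes relative to the CD3D+ class in each bin, although its interval overlapped that of LCK in the first and the last bin. IKZF1 followed a flatter course, at 55.8%, 68.8%, 77.4% and 87.3%. IKZF2 stood at 59.97%, 77.2%, 97.8% and 91.8%, and IKZF4 at 51.6%, 77.2%, 94.1% and 98.4%. For IKZF2 and IKZF4 the intervals of the upper 2 bins overlapped each other. IKZF5 showed no such course, at 106% to 111% in the 4 bins. HLA-DRA stood at 547, 84.1, 14.4 and 22.2 CPM in the same order, and the part of HLA-DRA-bearing cells in these values was not tested.

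**Figure D3:**
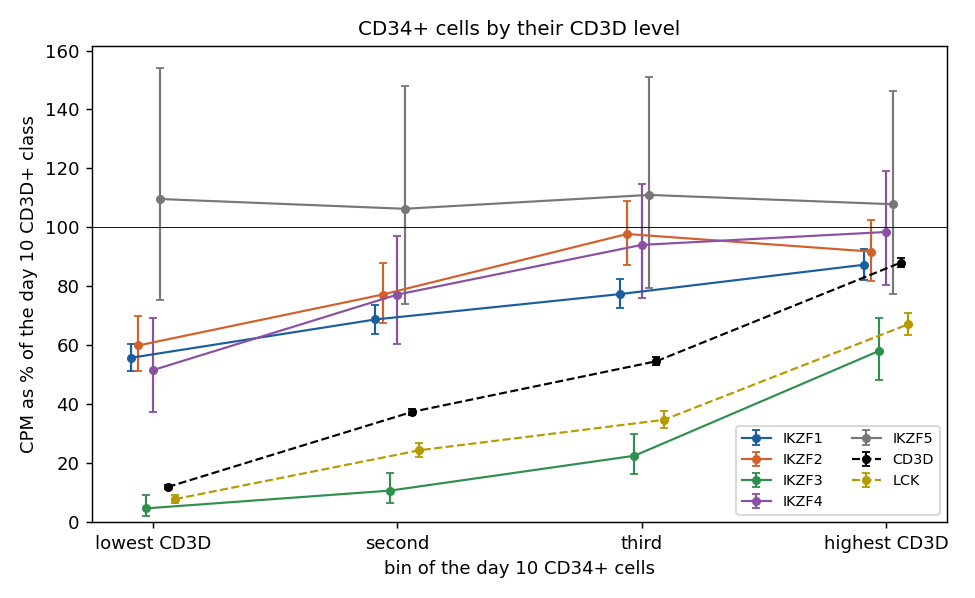
Level of each Ikaros family gene, and of CD3D and LCK (dashed), in 4 bins of the day 10 CD34+ cells ordered by the CPM of CD3D, as a percentage of the level in the day 10 CD3D+ class, with 95% Poisson intervals. IKZF3 runs from 4.69% to 58.1% and its points lie below those of CD3D and LCK, whereas IKZF1 runs from 55.8% to 87.3%.

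The 81 CD34+ cells without any CD3D UMI held 61 UMIs of IKZF1, 24 of IKZF2, 8 of IKZF4, 5 of IKZF5 and 2 of IKZF3. This was 55.2 CPM for IKZF1 (42.2 to 71.0) and 1.81 CPM for IKZF3 (0.219 to 6.54). IKZF1 was therefore well measured in CD34+ cells without a CD3D UMI, where IKZF3 rested on fewer than the 3 counts that a count of 0 allows. The median depth of these cells was 12542 UMIs, and other T cell receptor genes were not examined in them. HLA-DRA stood at 745 CPM in these cells, against 95.1 CPM for PTPRC, the common leukocyte gene. In 203 CD34+ cells with at least 2 UMIs of the erythroid and megakaryocyte genes GATA1, GATA2, KLF1 or HBD, IKZF1 stood at 134 CPM, IKZF2 at 46.9 CPM and IKZF3 at 8.94 CPM, and the interval of each held the value of the whole CD34+ class. The same 203 cells held CD3D at 709 CPM, against 936 CPM in the whole class, so these levels are not those of erythroid or megakaryocyte cells alone. The 45 CD34+ cells of day 14, all of which held CD3D, had 33.5 CPM of IKZF3 from 37 UMIs, 101 CPM of IKZF2 and 223 CPM of IKZF1. All 3 values lay above the upper bounds for day 10 CD34+ cells, which were 9.03, 43.3 and 139 CPM. T cell transcripts differed in the same direction, with CD3D at 2287 CPM against 936 CPM at day 10, CD8B at 220 against 3.87 CPM and GNLY at 86.0 against 25.4 CPM, while HLA-DRA was at 0 against 150 CPM. The day 14 cells were also deeper, at a median of 23143 UMIs against 17821, and barcodes of 10 to 100 UMIs in that library held CD34 at 34.5 CPM. The part of these in the difference was not tested.

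In the HLA-DRA-high cells of day 10, which carried monocyte and dendritic cell markers, IKZF1 was present at 53.7% of its CD3D+ level, IKZF2 at 17.3%, IKZF3 at 16.2%, IKZF4 at 24.3% and IKZF5 at 100%. IKZF1 stood at 98.8 CPM (94.4 to 103), IKZF2 at 8.49 CPM (164 UMIs), IKZF3 at 4.97 CPM (96 UMIs), IKZF4 at 3.73 CPM (72 UMIs) and IKZF5 at 5.44 CPM (105 UMIs) in 1180 cells. The log2 ratios to CD3D+ cells were -0.86, -2.01, -1.84 and -1.22 for IKZF1 to IKZF4 and 0.00 for IKZF5. All 4 members tested were lower and 0 higher, but IKZF2, IKZF3 and IKZF4 were below 10 CPM in HLA-DRA-high cells and were tested only through the CD3D+ class, where they are high, so their count is a description and only IKZF1 reached 10 CPM in both classes. The background was broad in this comparison, with 19.0% of 8300 tested genes lower and 14.8% higher. The median log2 ratio of the genes at 50 CPM or more in both classes was -0.25, and with levels scaled to that median the IKZF1 ratio was -0.63 and the split of all genes past the limit moved from 43.8% higher to 65.9% higher. All 4 members remained lower under that scaling.

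These cells also held CD3D, at 14.2% of its CD3D+ class level, and LCK at 13.1%. The percentages of IKZF2 and IKZF3 were close to these, and that of IKZF1 was not. Counted per 1000 CD3D UMIs, IKZF3 gave 18.8 UMIs in HLA-DRA-high cells (15.2 to 23.0) against 16.5 in CD3D+ cells, and IKZF2 gave 32.2 (27.4 to 37.6) against 26.5. IKZF1 gave 374 against 99.0 and IKZF5 20.6 against 2.91.

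Scrublet, which scores each barcode by its likeness to a simulated doublet, placed 147 of the 1180 cells among the 1174 highest scores of the day 10 library. These 147 cells held 144 of the 164 IKZF2 UMIs and 83 of the 96 IKZF3 UMIs, together with 4405 of the 5101 CD3D UMIs. In the other 1033 cells IKZF2 stood at 1.34 CPM (0.819 to 2.07), or 2.73% of its CD3D+ class level, and IKZF3 at 0.871 CPM (0.464 to 1.49), or 2.84%. CD3D stood at 2.51% and LCK at 2.24% there, so that IKZF2 and IKZF3 were left at the same low percentage as the T cell transcripts. IKZF1 in these 1033 cells stood at 85.0 CPM (80.3 to 89.8), which is 46.2% of its CD3D+ level, IKZF4 at 2.01 CPM from 30 UMIs, or 13.1%, and IKZF5 at 5.23 CPM from 78 UMIs, or 96.6%. The scores were computed from all genes, T cell genes included, and no barcode was removed for its score in the values given before. Whether the high scores mark doublets was not tested. With the highest scores left out of both classes the IKZF2 log2 ratio was -3.09, and it was -3.07 without cells that held MKI67 or TOP2A.

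**Figure D4:**
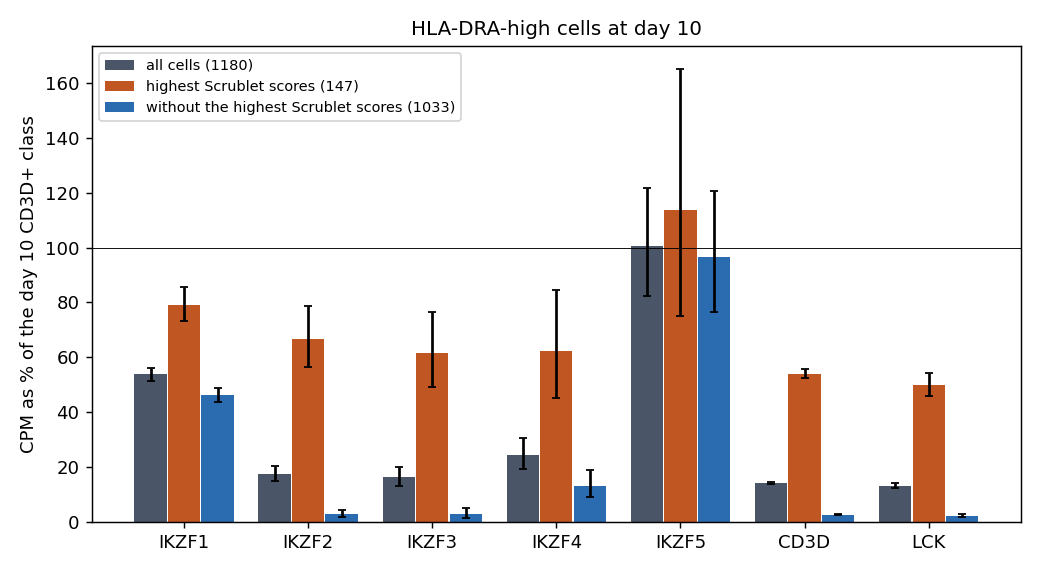
Level of each Ikaros family gene, CD3D and LCK in the day 10 HLA-DRA-high cells as a percentage of the level in the day 10 CD3D+ class, for all 1180 cells, the 147 with the highest Scrublet scores and the other 1033, with 95% Poisson intervals. IKZF2 and IKZF3 are at 2.73% and 2.84% in the 1033 cells, beside CD3D at 2.51%, while IKZF1 is at 46.2% and IKZF5 at 96.6%.

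Low IKZF2 and IKZF3 beside well measured IKZF1 was seen on both the dendritic and the monocyte side of the HLA-DRA-high cells. The sides were taken from all 1214 day 10 cells at the HLA-DRA limit, CD34+ cells included, and not from the class of 1180 cells. Among cells without the highest scores, the 309 with more dendritic cell than monocyte marker UMIs held IKZF1 at 80.7 CPM, IKZF2 at 2.23 CPM from 10 UMIs and IKZF3 at 1.34 CPM from 6 UMIs. The 693 cells on the monocyte side held IKZF1 at 86.3 CPM, IKZF2 at 0.992 CPM from 10 UMIs and IKZF3 at 0.694 CPM from 7 UMIs. The intervals of the 2 sides overlapped for all 3 genes. A further 163 day 10 cells met no class definition and held monocyte markers at 1920 CPM, erythroid and megakaryocyte markers at 697 CPM and T cell markers at 58.3 CPM, and these held IKZF1 at 86.6 CPM (73.7 to 101) and 2 UMIs of IKZF3. IKZF2 stood at 15.8 CPM from 29 UMIs there, above its level in HLA-DRA-high cells.

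At day 14 the GNLY-high cells, which express the cytotoxic granule gene GNLY, differed from CD8B+ cells in IKZF3 and IKZF4 and in opposite directions. GNLY-high comes before CD8B+ in the class order, so the GNLY-high class also included cells with CD8B. Taken without that order, 6392 day 14 cells held CD8B, against the 5800 of the CD8B+ class. IKZF3 stood at 109 CPM (104 to 113) in 1692 GNLY-high cells and at 53.5 CPM (52.1 to 54.9) in 5800 CD8B+ cells, a 2.03-fold difference. IKZF4 stood at 7.46 CPM (163 UMIs) against 14.6 CPM (1612 UMIs). IKZF1 stood at 238 and 220 CPM, IKZF2 at 95.3 and 89.2 CPM and IKZF5 at 8.74 and 8.09 CPM. The log2 ratios were 0.96 for IKZF3 and -0.66 for IKZF4, so 1 of the 4 tested members was higher and 1 lower, where 9.62% of 8273 tested genes were higher and 7.16% lower. IKZF4 had passed the level filter only through the CD8B+ class, where it is high. Scaled to the median ratio of genes at 50 CPM or more, which was -0.12 on the log2 scale, the IKZF4 ratio became -0.58 and no longer reached the limit, and the split of all genes past the limit moved from 57.3% to 71.2% higher. The same difference in IKZF3 was seen at day 10, where the 237 GNLY-high cells held 66.8 CPM (57.0 to 77.8) against 30.7 CPM (28.6 to 32.9) in CD8B+ cells. After thinning, IKZF3 was seen in 39.2% of day 14 GNLY-high cells (36.8 to 41.7%) and 22.2% of CD8B+ cells (21.2 to 23.3%). Without thinning the shares were 59.3% and 52.4%, at median depths of 11232 and 16956 UMIs.

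The step from CD3D+ cells at day 10 to CD8B+ cells at day 14 went with higher levels of IKZF2 and IKZF3, while IKZF4 differed little. IKZF2 stood at 49.2 and 89.2 CPM, IKZF3 at 30.6 and 53.5 CPM, and IKZF4 at 15.3 and 14.6 CPM. The log2 ratios were 0.80, 0.71 and -0.05, and that of IKZF1 was 0.25. Here 2 of 4 tested members were higher and 0 lower, against 10.7% of 8108 genes higher and 8.71% lower, and scaling to the median ratio moved the split of all genes from 55.1% to 66.0% higher. CD8B+ cells at day 10 stood close to the CD3D+ cells of that day, with 53.4 CPM of IKZF2 and 30.7 CPM of IKZF3. Within day 10, the CD8B+ and CD3D+ classes thus differed less in these genes than either did from its day 14 counterpart. Both groups share cells with the comparisons above, and day and library cannot be told apart.

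Within the larger classes the members differed between cells with and without markers of T cell stage. RAG1, which starts receptor gene rearrangement, divided the day 14 CD8B+ cells into 2888 with and 2912 without a UMI. IKZF4 stood at 17.2 CPM (16.1 to 18.4) with RAG1 and 12.3 CPM (11.4 to 13.2) without, while IKZF1 stood at 200 and 237 CPM, IKZF2 at 83.8 and 94.0 CPM and IKZF3 at 48.5 and 58.0 CPM. IKZF4 was thus higher in the cells with RAG1 and IKZF1, IKZF2 and IKZF3 lower, with intervals that did not overlap. At day 10 IKZF4 stood at 18.2 CPM with RAG1 and 13.8 CPM without, with overlapping intervals. The day 10 intervals also overlapped for IKZF2, at 51.3 and 53.9 CPM, and for IKZF3, at 29.7 and 30.9 CPM. Those of IKZF1 did not, at 173 CPM (162 to 184) with RAG1 and 201 CPM (195 to 207) without. IGLL1, a surrogate light chain gene that early T and B progenitors express, gave a further division, of the day 10 CD3D+ cells. IKZF4 stood at 19.4 CPM in 2732 IGLL1-high cells and 12.6 CPM in 5106 IGLL1-low cells, whereas IKZF3 stood at 22.3 and 36.1 CPM. IKZF1 measured 166 and 196 CPM and IKZF2 51.7 and 47.5 CPM. IKZF2 was thus higher in the IGLL1-high CD3D+ cells of day 10, but lower in the day 14 CD8B+ cells with RAG1. These divisions were of different classes on different days. Within day 10 the IKZF2 intervals with and without RAG1 overlapped, so no opposite direction was shown there.

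The 1294 day 10 CD3D+ cells with at least 2 UMIs of FST or IL13 held IKZF1 at 243 CPM (237 to 251) and IKZF4 at 10.1 CPM (8.69 to 11.6), the first above and the second below the 184 and 15.3 CPM of the whole CD3D+ class. The 58 such cells of day 14 held IKZF1 at 351 CPM (311 to 395). Dividing CD8B+ cells of day 14 by MKI67 and TOP2A instead left IKZF1 at 219 and 223 CPM and IKZF2 at 88.8 and 90.9 CPM with and without a UMI of either, and IKZF3 at 51.8 and 60.9 CPM. Only IKZF3 had intervals that did not overlap between these cycling and noncycling cells.

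**Figure D5:**
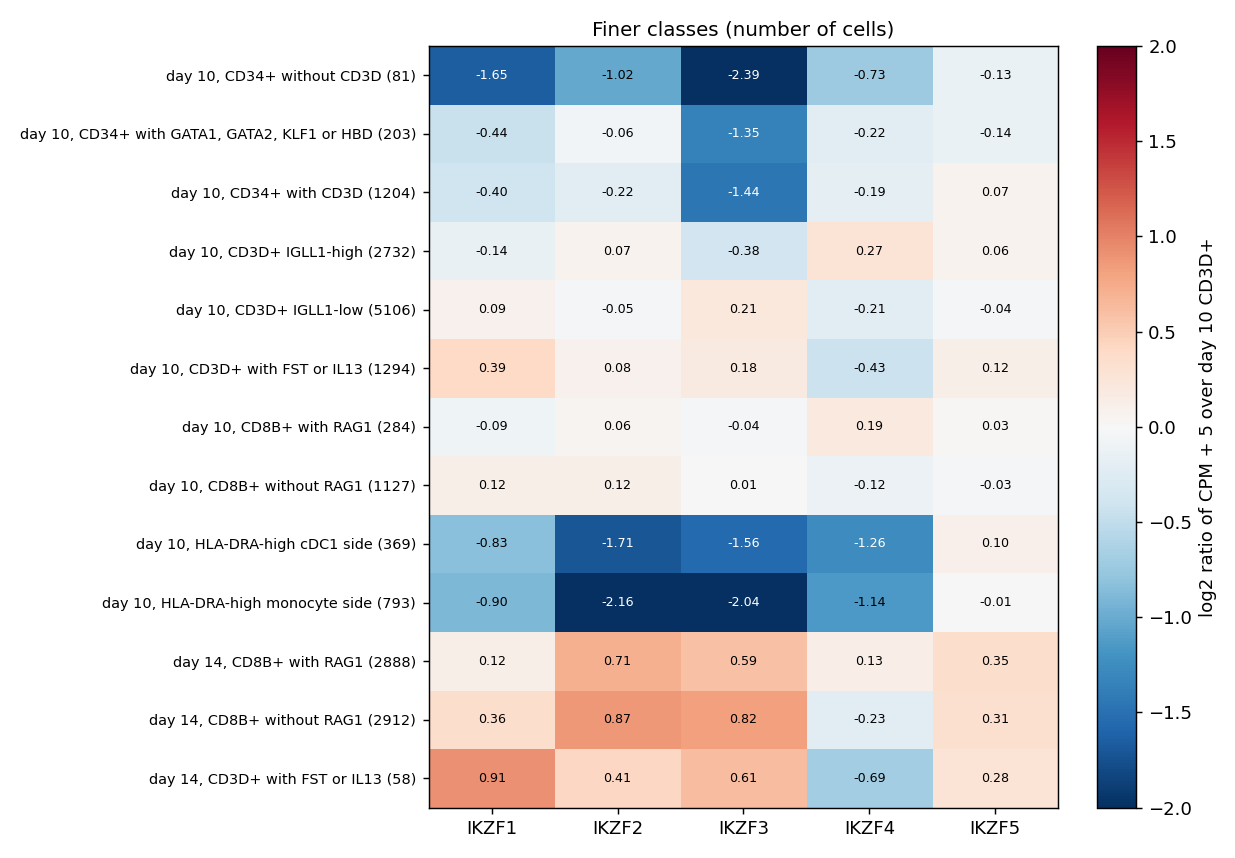
Log2 ratio of CPM + 5 of each gene in 13 finer classes over the day 10 CD3D+ class, with the number of cells in parentheses; red is higher and blue lower, and colors end at 2 in either direction. IKZF3 is at -2.39 in CD34+ cells without CD3D, IKZF4 is at 0.27 in IGLL1-high cells and -0.43 in cells with FST or IL13, and IKZF5 lies between -0.14 and 0.35.

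The order of classes can be read for each gene over the 9 sums of a class on 1 day with at least 100 cells. IKZF1 was highest in day 14 CD3D+ cells at 254 CPM and next in GNLY-high cells of day 14 and day 10 at 238 and 226 CPM, which did not differ from each other beyond counting error. IKZF2 placed the 3 day 14 classes and day 10 GNLY-high cells at the top, between 82.2 and 95.3 CPM, followed by day 10 CD8B+ cells at 53.4 CPM. IKZF3 ran from 109 CPM in day 14 GNLY-high cells down to 1.09 CPM in day 10 cells of no class, and of its 8 steps between neighbours only that between day 10 CD8B+ and CD3D+ cells, at 30.7 and 30.6 CPM, was within counting error. IKZF4 did not differ beyond counting error among day 10 CD3D+, day 10 CD8B+ and day 14 CD8B+ cells, at 15.3, 14.7 and 14.6 CPM. For IKZF5 none of the 8 neighbours differed beyond counting error. Classes farther apart in its order did, such as CD8B+ cells at 8.09 CPM on day 14 and 5.27 CPM on day 10.

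Over these 9 sums the log2 levels of IKZF1 and IKZF3 had a Pearson r of 0.98, those of IKZF1 and IKZF2 of 0.95 and those of IKZF2 and IKZF3 of 0.91, as a description of sums that share 2 libraries. IKZF4 had r of 0.30 to 0.57 with these genes. The genes whose levels ran most like that of IKZF3 among 7440 genes were MMP25-AS1, GPR171, PDE4D, CD226 and PTPN4, with r from 0.989 to 0.997, and CD226 encodes an activating receptor of T cells and natural killer cells. For IKZF1 they were TRAF3, MBOAT2, PRKCH, TRG-AS1 and TRGV9, with r from 0.987 to 0.992, of which TRG-AS1 and TRGV9 lie at the T cell receptor gamma locus. For IKZF2 they were TRIM33, TTC14, AZI2, RBM39 and TAF7, and for IKZF4 CCDC34, ATAD5, GANAB, SNHG1 and R3HDM1. IKZF5 spanned only 0.63 on the log2 scale and was not used for such a search.

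In thinned single cells most pairs of members occurred together about as often as their separate frequencies give. In thinned CD8B+ cells of day 14 IKZF1 and IKZF2 were seen together in 1297 of 5617 cells against 1238 for independence, a ratio of 1.05 (0.992 to 1.11), and IKZF2 and IKZF3 in 451 against 426, a ratio of 1.06 (0.963 to 1.16). In day 10 CD3D+ cells the ratio of IKZF2 with IKZF3 was 1.09 (0.961 to 1.24), and without thinning, where cells differ in depth, it was 1.14 (1.08 to 1.198). The day 14 CD3D+ cells gave 1.19 (1.01 to 1.39) for IKZF2 with IKZF3 and 1.69 (1.13 to 2.42) for IKZF3 with IKZF4, the latter from 29 cells. Without thinning the first of these was 1.07 (0.972 to 1.17) and the second 1.24 (1.02 to 1.501). The largest ratio was that of IKZF2 with IKZF3 in day 10 HLA-DRA-high cells, at 7.77 (2.12 to 19.9) from 4 cells against 0.515 for independence, and 7.28 (5.20 to 9.91) from 40 cells without thinning. Among the thinned cells of that class without the highest Scrublet scores, 0 held both genes, against 0.0296 for independence. With so few expected, the interval of that ratio ran from 0 to 125 and held 7.77, so nothing is read from this count.

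Genes of the proteins that Ikaros family members work with were listed by complex, and few of them passed the limit between the days. Of the 13 NuRD complex genes, all tested, MTA3 and GATAD2B were past the limit upward at day 14 and 0 downward, with log2 ratios of 0.65 each, and the list median was 0.14 against 0.00 for all tested genes, of which 12.0% were higher. MTA3 stood at 27.4 and 45.9 CPM. CHD4, the NuRD helicase, stood at 247 and 196 CPM and HDAC1 at 245 and 188 CPM, neither past the limit. Of 8 other partners, the SWI/SNF chromatin remodeling genes SMARCC1 and SMARCA4 were lower at day 14, with log2 ratios of -0.84 and -0.66. Among all tested genes 9.63% were lower. CRBN, the substrate receptor of the ligase through which lenalidomide degrades Ikaros and Aiolos, stood at 56.2 CPM on both days, and 0 of the 5 genes of that ligase and 0 of the 6 casein kinase 2 and protein phosphatase 1 genes that set Ikaros phosphorylation passed the limit.

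In CD34+ cells against CD3D+ cells of day 10 the partner lists held 1 gene past the limit, HDAC1, at 175 against 269 CPM. Of all tested genes 4.03% were lower and 6.17% higher there. In HLA-DRA-high cells 4 of 13 NuRD genes were lower, HDAC1, CHD4, HDAC2 and RBBP4, with log2 ratios from -0.94 to -0.77, and the list median was -0.50 against -0.20 for all tested genes, of which 19.0% were lower, so the share of the list is not far from the background. SMARCA4, SMARCB1 and the kinase gene CSNK2A2 were lower as well. In day 14 GNLY-high cells CHD3 stood at 42.2 CPM against 19.2 CPM in CD8B+ cells and CTBP2, a corepressor that binds Ikaros, at 53.0 against 20.2 CPM, while MTA3 stood at 29.9 against 51.0 CPM and HDAC2 at 113 against 173 CPM. CHD4, the other NuRD helicase gene named here, stood at 153 against 203 CPM and did not pass the limit. Of all tested genes 9.62% were higher and 7.16% lower in this comparison.

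Of 14 genes listed as targets of the family, 10 reached the level needed in the day comparison, and 6 of them were higher and 1 lower at day 14, with a median log2 ratio of 0.76, where 12.0% of all tested genes were higher and 9.63% lower. These included CD8A at 1.17 and 35.6 CPM, RAG1 at 8.45 and 72.8 CPM and RAG2 at 7.75 and 31.8 CPM, and the gene that was lower was IGLL1 at 753 and 69.5 CPM. IL7R, the interleukin 7 receptor, stood at 133 and 237 CPM, and BCL2, a survival gene, at 27.01 and 67.96 CPM. In CD34+ cells 6 of the 14 were tested, with IL7R lower at 53.3 against 158 CPM, DTX1, a Notch target, lower at 46.0 against 98.2 CPM and IGLL1 higher at 1654 against 732 CPM. The background there was 6.17% higher and 4.03% lower. In HLA-DRA-high cells 6 of 8 were lower and 2 higher, against 19.0% and 14.8% of all tested genes, and the higher genes were CD4 at 69.3 against 1.96 CPM and FLT3, a cytokine receptor of progenitors and dendritic cells, at 21.7 against 0.795 CPM. In GNLY-high cells 8 of 10 were lower and 0 higher, against 7.16% and 9.62% of all tested genes, among them RAG1 at 13.2 against 95.5 CPM. Several of these genes passed the level filter only through the group where they are high. Among them were CD8A, RAG1 and RAG2 between the days, and CD4 and FLT3 in HLA-DRA-high cells. The counts of this list are therefore a description. DNTT was at or near 0 throughout, with 1 UMI in all kept cells of day 10 and 0 of day 14.

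Of 8 genes of regulatory T cells, in which Helios and Eos are best known, only TNFRSF18 reached the level needed in the day comparison, at 58.8 and 107 CPM. FOXP3 was counted with 41 UMIs in all day 10 cells and 35 in all day 14 cells, CTLA4 with 14 and 9, and IL2RA with 110 and 354. IKZF2 was thus measured at 45.0 to 89.7 CPM in libraries where FOXP3 stood at 0.196 and 0.227 CPM. TNFRSF18, a receptor of the tumor necrosis factor family, stood at 403 CPM in day 14 GNLY-high cells against 34.05 CPM in CD8B+ cells. IKZF2 in the same cells stood at 95.3 and 89.2 CPM.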

How the data were processed

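Per the labels, CD7+ cells sorted from H1 cultures at 2 times were profiled on the 10x Genomics droplet platform, and the submitters' processing notes name Cell Ranger 4.0.0, GRCh38 and Seurat. The authors deposited raw UMI counts per gene and barcode without a cell filter, with 217681173 and 169758367 UMIs at day 10 and day 14, of which 96.3% and 90.7% lay in kept cells. Aligner settings and the gene annotation release are not given in the sources used here. Counts were summed over cells and expressed as CPM with exact Poisson 95% intervals, shares got exact Clopper-Pearson intervals, and both cover counting error only. Log2 ratios used CPM + 5 and calls needed 1.5-fold and 10 CPM in at least 1 group, with no p-value since each day had 1 library. Thinning to 5000 UMIs left out 291 and 382 shallower cells. Scrublet in scanpy 1.11.5 called 512 and 0 cells by its own threshold, so the 1174 and 638 highest scores were used, 0.8% per 1000 cells. Counts of zero allow up to 3 UMIs. Named genes were the 5 members, class markers, up to 4 genes of each list with the largest log2 ratios and the 5 genes nearest each member by Pearson r, and other genes in the text were chosen after their values were seen. The members, lists and classes were chosen with earlier results of these data known. Steps were tested on simulated counts. Coordinates are from GENCODE v44 and promoters from RefSeq, both GRCh38. Scripts ran in Python 3.11.15 with numpy 2.4.6, scipy 1.17.1 and pandas 2.3.3.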

Additional observations from a re-analysis of the deposited data

Results flagged for a closer look

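Barcodes of 10 to 100 UMIs, which entered no comparison, held UMIs of all 5 genes above the 3 counts that a count of 0 allows. At day 10 IKZF1 stood at 118 CPM there, IKZF2 at 39.3 CPM, IKZF3 at 23.3 CPM, IKZF4 at 9.11 CPM and IKZF5 at 6.83 CPM, and at day 14 they stood at 197, 117, 50.8, 12.0 and 12.0 CPM. The day 14 barcodes of this size held CD34 at 34.5 CPM against 0.474 CPM in kept cells and HLA-DRA at 28.0 against 4.12 CPM, so their make-up was not that of the kept cells.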

How the results depend on the processing

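The number of members past the limit was the same or within 1.5 times in 62 of 67 alternative settings. With a limit of 2-fold it was 1 in the day comparison, 0 in the GNLY-high comparison and 0 between CD8B+ cells at day 14 and CD3D+ cells at day 10. Without cells holding MKI67 or TOP2A it was 2 in the CD34+ comparison, where IKZF1 was added, and with scaling to the median ratio it was 1 in the GNLY-high comparison, where IKZF4 was lost. The cause of the last 2 was not tested. IKZF1 passed the limit between the days as well when cells holding MKI67 or TOP2A were left out, at a log2 ratio of 0.63. No log2 ratio of a called member changed sign, though without those cells the small ratios of IKZF4 between the days and of IKZF2 in GNLY-high cells became 0.08 and -0.09, and 61 of 285 moved by more than the counting error of the ratio. Across all genes, a limit of 2-fold left 377 higher and 219 lower genes between the days in place of 997 and 799, 215 and 131 in place of 496 and 324 in CD34+ cells, 789 and 525 in place of 1232 and 1578 in HLA-DRA-high cells, 407 and 187 in place of 796 and 592 in GNLY-high cells, and 339 and 148 in place of 868 and 706 in the last comparison. Leaving out cells with MKI67 or TOP2A gave 783 and 627 in CD34+ cells, no filter on low values gave 769 and 392 there, and median ratio scaling gave 1716 and 887 in HLA-DRA-high cells. Shares of cells with a UMI depended on depth, and 50 of them lay outside the interval of the thinned share when cells were not thinned. No paired analysis was possible because each day had 1 library. At 45 CD34+ cells and 9 HLA-DRA-high cells, the day 14 library limits what can be said of either class, and IKZF5 was below 10 CPM in both groups of all 5 comparisons.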
